A study of Homo sapiens with 8 samples.

Results

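The solute carrier (SLC) genes were examined for exon skipping in 2 human breast epithelial lines. Their events were taken by symbol, as every skipped-exon event of a gene whose symbol begins with SLC and a digit. There were 2004 such events among 123924 in the deposited tables of both lines, 1329 in the MCF10A table, 1521 in the HMLE TWIST table and 846 in both. They belonged to 239 genes. Mitochondrial-type carriers of the SLC25 family gave 408 events in 40 genes, other carriers gave 1560 events in 190 genes, and 36 events in 9 genes carried a symbol that starts like a carrier but names a binding partner, an antisense RNA or a neighbour, such as SLC9A3R1.

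MCF10A is a non-tumorigenic breast epithelial line, and HMLE TWIST is an immortalised breast epithelial line in which the transcription factor TWIST is overexpressed. Each line was kept for 24 hours in the solvent DMSO or in 10 µM emetine, an alkaloid that blocks translation on the ribosome, and each of the 4 groups had 2 libraries of polyadenylated RNA, described as biological replicates. MCF10A therefore differs from HMLE TWIST in origin as well as in TWIST. The deposited columns name the groups only as first and second sample, and DMSO was taken as the first from the order in the table names, so that every direction below rests on that order.

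Solute carriers are membrane proteins that move ions, sugars, amino acids, vitamins, metals and metabolites across the plasma membrane or the membranes of organelles. The SLC25 family sits mainly in the inner mitochondrial membrane, where it exchanges metabolites, nucleotides and cofactors with the cytosol, and SLC25A17 serves the peroxisome. Exons of such genes can be skipped or included to give another protein, or to bring in a premature stop codon. Transcripts with a premature stop are removed by nonsense-mediated decay, which needs translation, and an exon that brings such a stop is called a decay exon here where GENCODE annotates its transcript as a decay target.

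An event holds a middle exon and its flanking exons, and the inclusion level is the share of transcripts that keep the middle exon, from 0 to 1, computed from junction reads of the 2 forms after correction for their effective lengths. The change is the mean level with emetine minus the mean level with DMSO. An event was tested if each library had 20 junction reads or more and the rarer form 10 or more over the libraries. It was called when its adjusted p fell under 0.05 in a quasi-binomial model (adjusted by Benjamini-Hochberg over all events of the fit) and its mean level moved by 0.1 or more. A second test, limma on the log2 odds, is given beside it. Events of a gene often share an exon or a junction and are not independent. Forms of an exon that share an end can share junction reads, so their levels are not separate shares of transcripts.

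Libraries held 78412292 to 91259363 junction reads in all events and 684725 to 1002215 in SLC events, with a median of 229 to 315 reads per tested SLC event. The median difference between replicates of an SLC event was 0.0135 to 0.0188 on the level scale. Of the 6 epithelial markers checked, 5 (CDH1, ESRP1, ESRP2, KRT5 and KRT14) had an event in MCF10A, at 236 to 54251 reads in a library. In HMLE TWIST 3 of the 6 had one, at 0 to 9 reads, so the epithelial markers were nearly absent from the table: the deepest event of each summed to 2 to 19 reads, against 32478 to 58479 in MCF10A. The deepest events of the 6 mesenchymal markers summed to 158663 to 285737 reads in HMLE TWIST, and those of the 5 with an event in MCF10A to 6243 to 28612. Blood markers had at most 2 reads and endothelial markers had no event.

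The sequences of the exons on which the results turn are shown first. Exon positions are those of the deposited tables (GRCh37, starts counted from 1). The letters were cut from GENCODE 29 transcripts in which the gene, the exon length and both flanking intron lengths were the same, a match found for 69.81% of the 2004 SLC events, and they run 5′ to 3′ on the transcribed strand. Exons that fell with emetine come first. The SLC37A4 exon (chr11:118897216-118897398, minus strand) and the SLC15A4 exon (chr12:129294488-129294656, minus strand) were each counted in a long and a short form. Capitals mark the bases of the short form.

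SLC37A4, 183-base form with the 86-base form in capitals: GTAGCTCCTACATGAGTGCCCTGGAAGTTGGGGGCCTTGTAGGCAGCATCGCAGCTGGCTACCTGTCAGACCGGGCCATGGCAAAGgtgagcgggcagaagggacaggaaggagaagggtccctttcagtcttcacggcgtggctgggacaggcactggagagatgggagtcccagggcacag
SLC15A4, 169-base form with the 111-base form in capitals: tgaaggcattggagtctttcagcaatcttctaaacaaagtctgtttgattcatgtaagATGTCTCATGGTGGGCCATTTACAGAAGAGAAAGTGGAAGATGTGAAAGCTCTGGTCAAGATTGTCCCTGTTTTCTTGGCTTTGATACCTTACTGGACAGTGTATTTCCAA

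Capitals mark runs of 3 or more G in the next group, in which SLC6A6 (chr3:14509596-14509720, plus strand) and SLC4A7 (chr3:27450847-27451021, minus strand) have coding exons that fell, SLC25A14 (chrX:129484620-129484705, plus strand) has a coding exon that rose, and the others are decay exons that rose and are read through to their end by the annotated reading frame. These are SLC20A1 (chr2:113410466-113410524, plus strand), SLC7A6 (chr16:68321226-68321338, plus strand) and SLC25A12 (chr2:172704683-172704786, minus strand). Their lengths of 59, 113 and 104 bases are not multiples of 3.

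SLC6A6, 125 bases: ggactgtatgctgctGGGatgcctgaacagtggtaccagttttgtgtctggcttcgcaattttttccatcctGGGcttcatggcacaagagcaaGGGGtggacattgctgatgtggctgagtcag
SLC4A7, 175 bases: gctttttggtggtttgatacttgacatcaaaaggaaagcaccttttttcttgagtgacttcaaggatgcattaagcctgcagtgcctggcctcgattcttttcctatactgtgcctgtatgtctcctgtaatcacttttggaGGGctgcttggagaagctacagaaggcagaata
SLC25A14, 86 bases: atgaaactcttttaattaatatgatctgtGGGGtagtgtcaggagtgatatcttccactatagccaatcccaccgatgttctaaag
SLC20A1, 59 bases: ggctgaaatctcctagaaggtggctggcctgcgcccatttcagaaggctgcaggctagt
SLC7A6, 113 bases: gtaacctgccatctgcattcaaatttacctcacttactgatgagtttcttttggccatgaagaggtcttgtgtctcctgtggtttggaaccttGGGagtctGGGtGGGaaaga
SLC25A12, 104 bases: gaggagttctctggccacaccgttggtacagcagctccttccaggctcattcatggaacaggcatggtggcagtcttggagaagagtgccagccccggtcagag

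The decay exons of 4 further genes are shown from their first base to the annotated premature stop codon, which is in capitals. They belong to SLC39A9 (chr14:69908549-69908689), SLC25A36 (chr3:140685776-140685878) and SLC25A10 (chr17:79680292-79680536) on the plus strand and to SLC25A16 (chr10:70276841-70276942) on the minus strand.

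SLC39A9, first 74 of 141 bases: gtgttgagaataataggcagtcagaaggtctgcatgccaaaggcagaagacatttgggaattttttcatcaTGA
SLC25A36, first 35 of 103 bases: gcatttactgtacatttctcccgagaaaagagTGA
SLC25A10, first 27 of 245 bases: ggacagccaaggggcgttgttttcTGA
SLC25A16, first 44 of 102 bases: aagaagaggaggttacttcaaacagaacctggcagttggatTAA

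SLC37A4, the transporter that carries glucose 6-phosphate into the endoplasmic reticulum and is mutated in a glycogen storage disease, lost a coding exon in both lines with emetine. The 86-base exon (ENSG00000137700.16) stood at 0.988 and 0.954 in the MCF10A DMSO libraries and at 0.411 and 0.498 in the emetine libraries. In HMLE TWIST it stood at 0.936 and 0.986 with DMSO and at 0.483 and 0.518 with emetine. Every DMSO library of either line was near full inclusion and every emetine library was near even use of both forms, with no overlap. The mean was 0.971 ± 0.0244 (SD, n = 2) and fell to 0.455 ± 0.0618 in MCF10A, a change of -0.516, against a change of -0.46 in HMLE TWIST. The quasi-binomial model gave adjusted p of 5.36e-18 and 3.61e-20, and limma gave 0.0184 and 0.0194.

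The long form of this exon is annotated only in a transcript with no coding sequence. It shares its first 86 bases, the junction before them and the skipping junction with the short form, so both results are not independent. Reads of the junction before the exon fit both forms, so the level of the long form is not the share of transcripts that hold it. Its level was 0.974 and 0.891 with DMSO and 0.25 and 0.33 with emetine in MCF10A. In HMLE TWIST it was 0.867 and 0.969 with DMSO and 0.324 and 0.321 with emetine. It changed by -0.642 in MCF10A, the largest fall of any SLC event called in that line, and by -0.595 in HMLE TWIST. The response of neither form was called different between the lines, with differences of 0.0561 and 0.047 in the change (quasi-binomial adjusted p 0.908 and 0.946). The junction reads of the 86-base event also moved in MCF10A, from 625 and 707 with DMSO to 186 and 185 with emetine, but not in HMLE TWIST, where they were 477 and 646 against 460 and 689.

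The other tested SLC37A4 exons moved by less than 0.1 and none was called. The 139-base coding exon was at 0.998 or more with DMSO and at 0.936 to 0.971 with emetine, changes of -0.0376 and -0.06. Its levels of 1 with DMSO allow levels down to 0.992. The 245-base exon stood at 0.991 or more with DMSO and at 0.937 to 0.988 with emetine, changes of -0.0461 and -0.0229. Its level of 1 in the second MCF10A DMSO library allows 0.993. In the untranslated 5′ part of the gene, the 504-base exon rose from 0.0534 and 0.044 to 0.141 and 0.147 in MCF10A and from 0.027 and 0.023 to 0.113 and 0.0816 in HMLE TWIST, and the 100-base exon changed by 0.0301 and 0.062. Their groups did not overlap and their adjusted p were below 0.05 in both tests. Without the length correction, which lowers the weight of inclusion reads, the 504-base exon passed the size threshold in both lines (0.158 and 0.128) and the 100-base exon in HMLE TWIST (0.116). The 66-base exon was almost always skipped, at 0.0116 or less in every library. Its levels of 0 in MCF10A allow up to 0.0135.

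**Figure D1:**
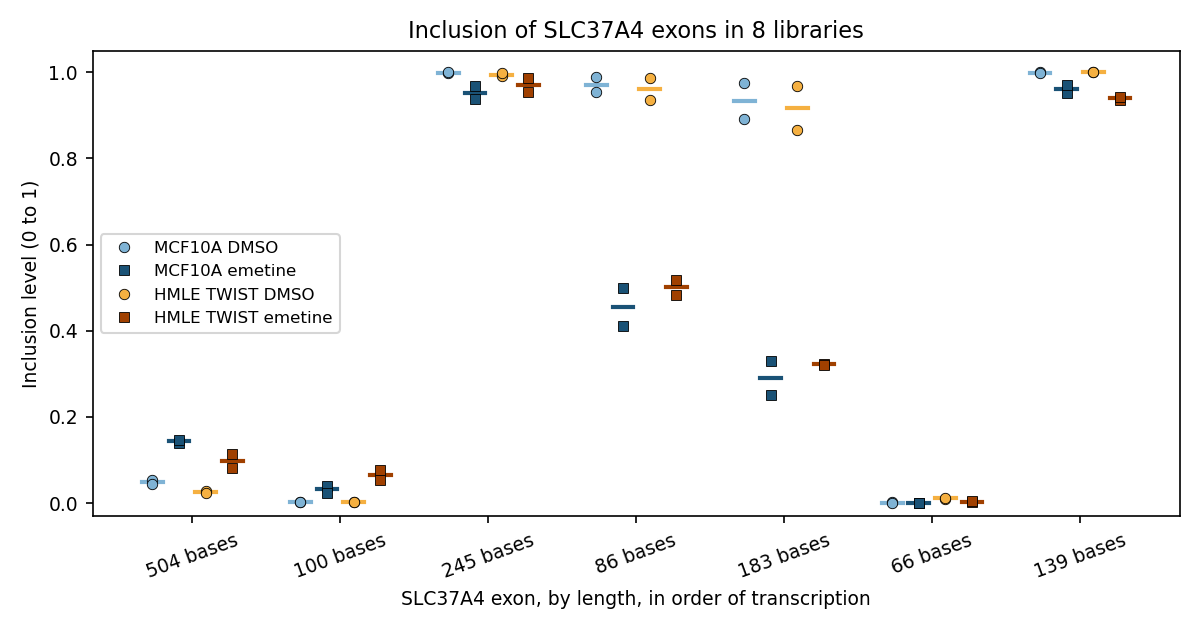
Inclusion level (0 to 1) of 7 SLC37A4 exons, in order of transcription, in 8 libraries; points are libraries and short bars group means of 2. The 86-base and 183-base forms fall from 0.867 or more with DMSO to between 0.25 and 0.518 with emetine in both lines, while the other exons stay near 0 or near 1.

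Over all SLC events in MCF10A, 52 of 379 tested were called (13.7%), against 13.1% of all 25522 events tested. Of these, 27 rose and 25 fell in 35 genes, where 7.97% of all events rose and 5.17% fell. The median change of the SLC events was 0.000456 and that of all events -0.000168. Limma called 36, where it called 7.88% of all events. DMSO and emetine libraries were fully apart in all 52, as in 3342 of the 3355 called events of all genes. Among tested events, called or not, they were apart in 65.7% of SLC events and 67.4% of all events. Without the length correction the calls were 33 higher and 19 lower, and the higher share of the calls over all events went from 60.7% to 70.5%.

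In HMLE TWIST 74 of 460 tested SLC events were called (16.1%), against 14.2% of all 30290, with 26 higher and 48 lower in 44 genes. The background was 6.23% higher and 7.97% lower. Limma called 53, where it called 9.94% of all events. Libraries of the groups were fully apart in all 74, as in 4290 of the 4301 called events of all genes. Among tested events they were apart in 68.9% of SLC events and 69.9% of all events. Without the length correction the calls were 32 higher and 34 lower, so the excess of falls over rises depended on that correction, as it did over all events, where 1888 rises and 2413 falls became 1944 and 1683. The median change was -0.00446 for SLC events and -0.00315 for all events.

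Both lines shared much of the response. Of 262 SLC events tested in both, 45 were called in MCF10A and 56 in HMLE TWIST, and 32 were called in both, which is 71.1% of the MCF10A calls and 57.1% of the HMLE TWIST calls. All 32, in 22 genes, moved in the same direction, 12 up and 20 down. Among all 19025 events tested in both, 1679 were called in both, 60.2% and 49.9% of the calls of each line, and 1664 of them moved the same way.

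**Figure D2:**
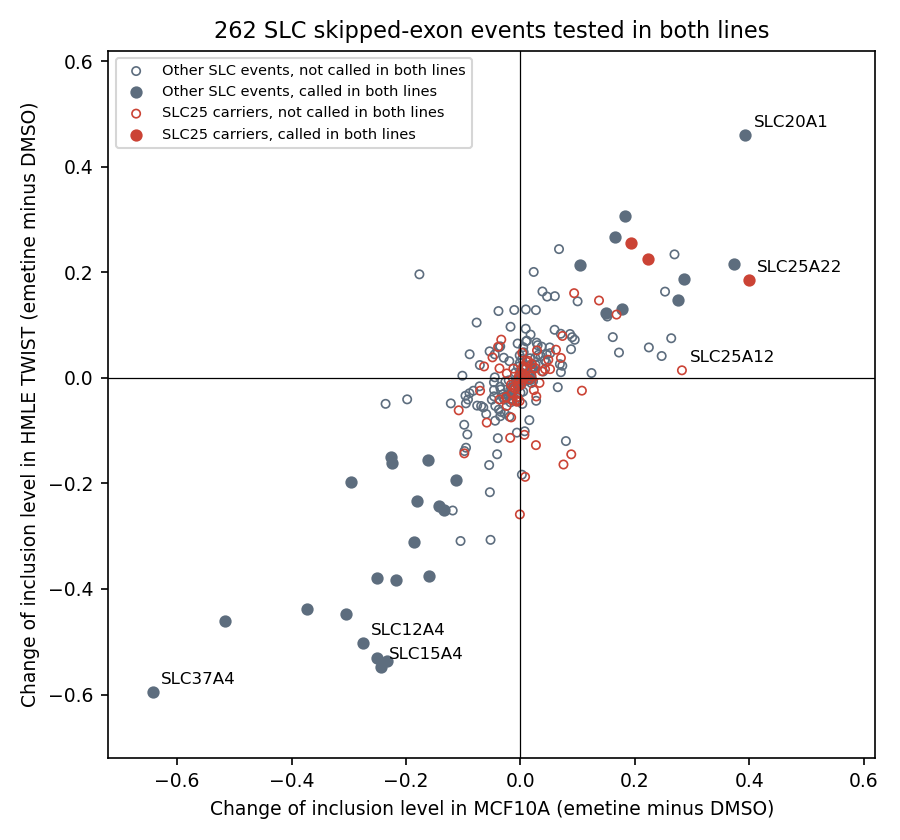
Change of inclusion level (emetine minus DMSO) in MCF10A against that in HMLE TWIST for 262 SLC events tested in both lines; filled points were called in both, red points are SLC25 carriers. All 32 filled points lie to the lower left or the upper right of the origin, SLC37A4 at the lower left end and SLC20A1 at the upper right, and 3 of them are SLC25 events.

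SLC25 carriers had 6 of 86 events called in MCF10A (6.98%), 5 higher and 1 lower, beside 46 of 290 events of other carriers (15.9%), 22 higher and 24 lower. In HMLE TWIST it was 16 of 120 SLC25 events (13.3%), 6 higher and 10 lower, and 58 of 334 other events (17.4%), 20 higher and 38 lower. Over all events the shares were 13.1% and 14.2%, and the difference between the 2 sets of carriers was not tested. Without the length correction the SLC25 calls in HMLE TWIST were 9 higher and 6 lower, so their leading direction turned. The mean level of the tested events was lower in SLC25 than in other SLC events in each of the 8 libraries, 0.636 to 0.695 against 0.75 to 0.772, while the medians were 0.891 to 0.95 and 0.918 to 0.96.

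SLC25A22, the mitochondrial glutamate carrier, had the largest SLC25 rise in MCF10A, in a 325-base untranslated exon (chr11:796043-796367). Its level was 0.495 and 0.314 with DMSO and 0.714 and 0.893 with emetine in MCF10A, and 0.457 and 0.58 against 0.672 and 0.735 in HMLE TWIST. The groups did not overlap in either line. The changes were 0.399 and 0.185, with quasi-binomial adjusted p of 3.73e-05 and 0.0142. Limma did not call them (0.0739 and 0.149), and in HMLE TWIST the call was also lost without the first DMSO library (0.123) or the second emetine library (0.153).

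SLC25A14, a carrier of the uncoupling protein group, gained exons in both lines. The 86-base coding exon printed above was at 0.249 and 0.208 with DMSO and 0.448 and 0.456 with emetine in MCF10A, and at 0.533 and 0.445 against 0.718 and 0.711 in HMLE TWIST. HMLE TWIST was higher under both conditions, and the rise was nearly the same size, 0.224 and 0.226. An upstream exon of 238 bases, partly coding, went from 0.0179 and 0.0698 to 0.233 and 0.242 in MCF10A. In HMLE TWIST it went from 0.0862 and 0.06 to 0.3 and 0.357. A form 9 bases longer, with the same start and the same inner ends of the flanking exons, changed by 0.192 and 0.272. The events of this longer form did not match between the lines on all exon coordinates. They are therefore not counted among the events tested in both lines. All 3 exons were called in each line by the quasi-binomial model (adjusted p 5.39e-05 to 0.00106). Limma called only the 2 upstream forms in HMLE TWIST, and the 86-base call in HMLE TWIST was lost without the second DMSO library (0.181). Junction reads of the 86-base event rose from 97 and 125 to 301 and 274 in MCF10A and from 125 and 112 to 459 and 418 in HMLE TWIST. The part of this in the levels was not tested.

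SLC25A12, an aspartate-glutamate carrier, gained a decay exon in MCF10A. Its level was 0.012 and 0.0135 with DMSO and 0.362 and 0.228 with emetine there. In HMLE TWIST it was 0 and 0.00535 with DMSO, where the level of 0 in 121 reads allows up to 0.0122, and 0.0167 and 0.0175 with emetine. All libraries but the MCF10A emetine pair kept the exon near 0. The change in MCF10A was 0.282 (adjusted p 2.37e-16 in the quasi-binomial model, 0.0145 in limma), and that in HMLE TWIST was 0.0144 (0.171). The difference of response between the lines, -0.268, was not called (adjusted p 0.923), in a test made on the log odds and not on the level. The emetine groups themselves did differ by -0.278 (adjusted p 3.61e-08, limma 0.0413).

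The remaining SLC25 calls were named after their values were seen. In MCF10A the sixth was the 94-base coding exon of SLC25A13, the other aspartate-glutamate carrier, at 0.994 and 0.98 with DMSO and 0.888 and 0.87 with emetine. In HMLE TWIST the 110-base coding exon of SLC25A40 (chr7:87473069-87473178), whose skipping form is a decay target, fell from 0.988 and 0.993 to 0.695 and 0.769, beside 0.976 and 0.975 against 0.969 and 0.979 in MCF10A. It was called in HMLE TWIST (adjusted p 8.2e-08, limma 0.0113), and the difference between the lines of -0.258 missed the threshold (adjusted p 0.0895).

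Several SLC25 decay exons fell in HMLE TWIST. Of 20 tested SLC25 events with a decay target as the inclusion form, 1 rose and 5 fell, beside 331 rises and 138 falls in 2501 such events of all genes. The 5 came from only 2 genes with shared skipping junctions: 3 exons between the same flanking exons of SLC25A36, a pyrimidine nucleotide carrier, and 2 forms of an exon of SLC25A29, a carrier of basic amino acids. The 72-base form in SLC25A29 went from 0.284 and 0.116 to 0.0252 and 0.0351. In SLC25A36 the 87-base exon went from 0.151 and 0.183 to 0.0191 and 0.0294, and the 37-base exon from 0.271 and 0.181 to 0.0132 and 0.0647. SLC25A1, the citrate carrier, and SLC25A26, the carrier of S-adenosylmethionine, gave the other falls, of -0.113 and -0.159 in 2 exons and -0.127 and -0.108 in 2 events of an exon.

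SLC25A17 gave the largest SLC25 rise in HMLE TWIST, in a 137-base exon (chr22:41175762-41175898) that matched no transcript and was tested in that line only. It went from 0.0141 and 0.0145 to 0.344 and 0.247 (adjusted p 5.43e-05 in the quasi-binomial model, limma 0.0115), with both emetine libraries well above both DMSO libraries. The decay exon of SLC25A16 went from 0.0413 and 0.0961 to 0.0976 and 0.333, a call not made by limma (0.215) and lost with the event's own dispersion, without either DMSO library (0.119 and 0.174) or without the second emetine library (0.0288).

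**Figure D3:**
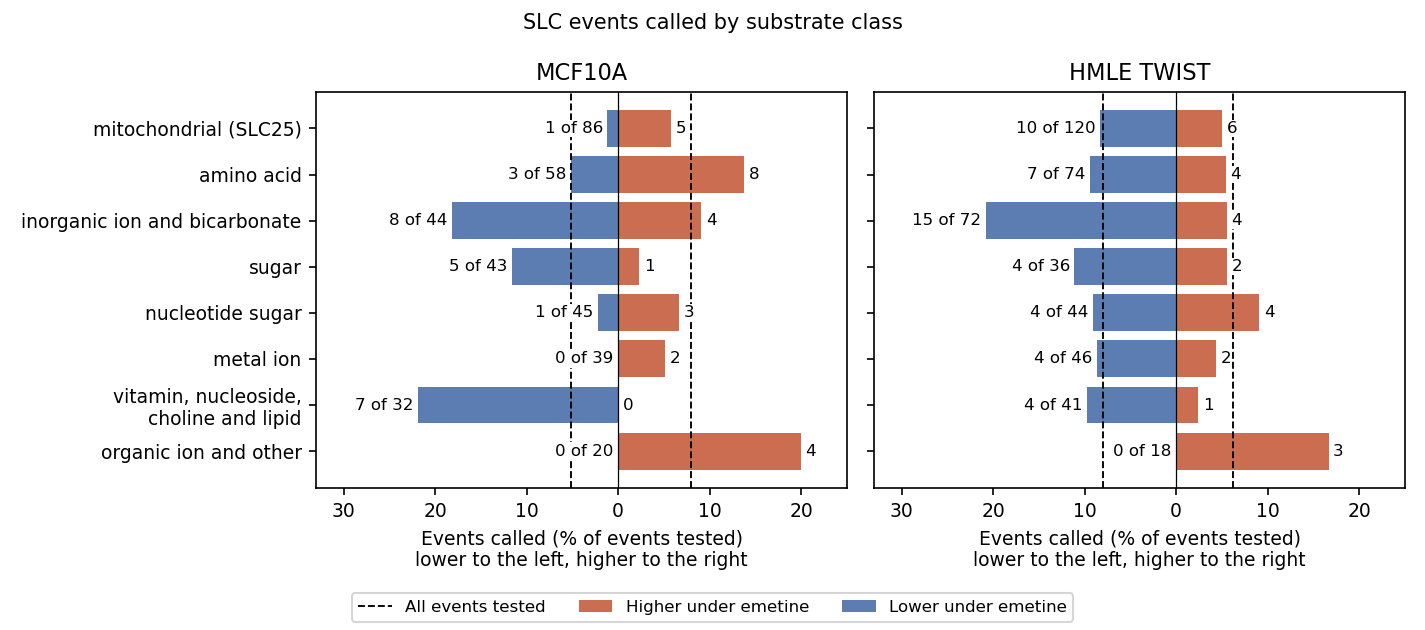
Share of tested SLC events called lower (left) or higher (right) with emetine, by substrate class taken from the family number, with counts at the bars; dashed lines are the shares of all events. Inorganic ion and bicarbonate carriers show 8 of 44 events lower in MCF10A and 15 of 72 in HMLE TWIST, and SLC25 carriers lie near or inside the dashed lines.

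Among the other carriers, those of inorganic ions and bicarbonate had 12 of 44 events called in MCF10A (27.3%), 4 higher and 8 lower. In HMLE TWIST it was 19 of 72 (26.4%), 4 higher and 15 lower. Over all events 13.1% were called in MCF10A (5.17% lower) and 14.2% in HMLE TWIST (7.97% lower), which also applies to the classes below. The calls lay in 8 and 11 genes, and overlapping forms of an exon in SLC12A4, SLC9A8 and SLC26A6 count as separate events. The difference from all events was not tested. Falls also led without the length correction, with 7 of 11 calls and 13 of 19.

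SLC20A1, a sodium-phosphate cotransporter, showed the largest called rise of a decay exon in each line. The 59-base exon was at 0.0429 and 0.0335 with DMSO and 0.413 and 0.449 with emetine in MCF10A, and at 0.0449 and 0.0441 against 0.542 and 0.466 in HMLE TWIST. All 4 DMSO libraries were low and all 4 emetine libraries at 0.413 or more. The exon rose by 0.393 and 0.459, with quasi-binomial adjusted p of 2.03e-41 and 4.29e-35, against 0.0145 and 0.0113 by limma. The reads of the event fell from 4161 and 5003 to 1244 and 1201 in MCF10A and were 1313 and 894 against 1358 and 1072 in HMLE TWIST.

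SLC4A7, a sodium bicarbonate cotransporter, lost the 175-base coding exon, and its skipping form is a decay target. The level was 1 and 0.96 with DMSO and 0.705 and 0.754 with emetine in MCF10A. In HMLE TWIST no DMSO read skipped the exon, which with 132 and 90 reads allows levels down to 0.957 and 0.937, and the emetine libraries were at 0.381 and 0.558. The 162 reads of the first MCF10A DMSO library allow 0.964 in the same way. The changes were -0.25 and -0.53 (adjusted p 0.00062 and 5.74e-09 in the quasi-binomial model).

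SLC12A4, a potassium-chloride cotransporter, and SLC9A8, a sodium-hydrogen exchanger, also included less with emetine. The 58-base SLC12A4 exon (chr16:67984557-67984614) fell from 0.989 and 0.988 to 0.72 and 0.706 in MCF10A and from 0.887 and 0.946 to 0.399 and 0.427 in HMLE TWIST. Its reads rose from 280 and 255 to 1881 and 1886 in MCF10A and from 281 and 397 to 1350 and 1778 in HMLE TWIST. The 83-base SLC9A8 exon (chr20:48467299-48467381, coding) fell from 0.679 and 0.586 to 0.279 and 0.24 in MCF10A and from 0.354 and 0.766 to 0.138 and 0.107 in HMLE TWIST.

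Reads of the SLC9A8 event were 39 and 43 with DMSO in MCF10A and 727 and 767 with emetine, and 32 and 28 against 514 and 571 in HMLE TWIST. The inclusion level is a ratio and does not say whether the included form fell or the skipped form rose, and the part of the read change in the level was not tested. In HMLE TWIST limma did not call the SLC9A8 fall (0.0613), nor was it called without the second DMSO library, when it was -0.231. A 35-base form with the same end fell by 0.305 in MCF10A and by 0.447 in HMLE TWIST.

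SLC9A5, another sodium-hydrogen exchanger, moved in both directions. A 71-base coding exon fell from 1 and 1 (28 and 23 reads, which allow levels down to 0.845 and 0.818) to 0.815 and 0.686 in MCF10A and from 0.984 and 0.965 to 0.63 and 0.564 in HMLE TWIST. A 78-base exon of a non-coding transcript rose from 0.184 and 0.142 to 0.873 and 0.839 in HMLE TWIST, the largest rise of any SLC event called in that line (0.693, adjusted p 7.21e-12, limma 0.0113). That event had too few reads for the test in MCF10A. A 171-base exon that matched no transcript fell from 0.882 and 0.815 to 0.444 and 0.333 in HMLE TWIST, a call lost without the second emetine library (-0.404). The 71-base call in MCF10A was lost without either DMSO library.

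SLC26A6, an anion exchanger, fell in a 93-base decay exon, from 0.841 and 0.806 to 0.617 and 0.437 in MCF10A. In HMLE TWIST this exon went from 0.696 and 0.655 to 0.482 and 0.476. Limma called neither change (0.0593 and 0.102), and the HMLE TWIST call was lost without the first DMSO library (-0.176). A longer form with the same start (chr3:48669678-48669829) was also called in both lines, with changes of -0.227 and -0.149. Reads at the shared edge can fit both forms, so the level of the 93-base form need not be its share of transcripts. SLC12A9 was tested in HMLE TWIST only, where a 125-base coding exon fell from 0.922 and 0.962 to 0.696 and 0.557 (adjusted p 7.93e-10, limma 0.0232).

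The amino acid carriers had 11 of 58 events called in MCF10A (19%), 8 higher and 3 lower. In HMLE TWIST it was 11 of 74 (14.9%), 4 higher and 7 lower. Without the length correction HMLE TWIST had 6 higher and 5 lower, so its leading direction turned. SLC7A6, the light chain of a plasma membrane exchanger, gained the 113-base decay exon, from 0.0611 and 0.0472 to 0.429 and 0.426 in MCF10A and from 0.124 and 0.0449 to 0.32 and 0.279 in HMLE TWIST. All emetine libraries lay above all DMSO libraries. The changes were 0.373 and 0.215 (adjusted p 2.96e-13 and 1.17e-06 in the quasi-binomial model, limma 0.0146 and 0.0587).

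SLC15A4, a lysosomal transporter of peptides and histidine, lost the exon printed above, and its skipping form is a decay target. The 169-base form was at 0.916 and 0.963 with DMSO and 0.619 and 0.772 with emetine in MCF10A, and at 0.934 and 0.957 against 0.388 and 0.408 in HMLE TWIST. The HMLE TWIST emetine libraries were the lowest of all 8. The changes were -0.244 and -0.548, and the 111-base form, which shares the skipping junction, changed by -0.233 and -0.537. The difference of response of the 169-base form was not called (-0.304, adjusted p 0.323).

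SLC6A6, the taurine transporter, was tested in HMLE TWIST only. Its 125-base coding exon, whose skipping form is a decay target, went from 1 and 0.984 to 0.319 and 0.435 there, a change of -0.615 (adjusted p 5.14e-10, limma 0.0124) and the largest fall of any SLC event called in that line. In MCF10A it was at 0.996 and 0.993 with DMSO and at 0.954 and 1 with emetine. Its junction reads dropped in both lines, from 333 and 381 to 31 and 33 in HMLE TWIST and from 965 and 1067 to 42 and 40 in MCF10A, so the emetine levels rest on few reads, and the level of 1 in 40 reads allows 0.87, that in 333 reads 0.982. The difference of response of -0.598 was not called (adjusted p 0.346).

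SLC38A6 and SLC38A9 belong to the neutral amino acid carriers, and SLC38A9 reports lysosomal arginine to the growth pathway. The 95-base decay exon of SLC38A6 was at 0 in both MCF10A DMSO libraries (45 and 60 reads, which allow up to 0.0331 and 0.025) and at 0.211 and 0.316 with emetine. The same exon stood at 0.0509 and 0.0402 against 0.153 and 0.0884 in HMLE TWIST and was not called. A 147-base decay exon of this gene rose from 0.0811 and 0.111 to 0.41 and 0.385 in HMLE TWIST, and stood at 0.0625 and 0.0612 against 0.397 and 0.433 in MCF10A, with too few reads for the test. The 113-base untranslated exon of SLC38A9 rose from 0.117 and 0.225 to 0.399 and 0.492 in MCF10A, where limma did not call it (0.0703), and from 0.0571 and 0.0505 to 0.203 and 0.2 in HMLE TWIST, where the call was lost without the second DMSO library. SLC7A2, a cationic amino acid transporter, rose in MCF10A in a 146-base exon from 0.027 and 0.0213 to 0.186 and 0.576, 2 emetine libraries far apart from each other, on 26 to 48 reads.

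Metal carriers had 2 of 39 events called in MCF10A (5.13%) and 6 of 46 in HMLE TWIST (13%). SLC39A9, a zinc transporter, gained its 141-base decay exon, from 0.0341 and 0.0323 to 0.359 and 0.28 in MCF10A and from 0.0439 and 0.02 to 0.236 and 0.204 in HMLE TWIST. The rise was 0.286 and 0.188 (adjusted p 3.02e-19 and 3.62e-15 in the quasi-binomial model, limma 0.0146 and 0.0217). The zinc transporter SLC30A6 lost a 49-base coding exon in HMLE TWIST, from 0.816 and 0.81 to 0.564 and 0.443, and was not called in MCF10A, at 0.652 and 0.651 against 0.48 and 0.614. SLC41A3, a magnesium transporter named after its values were seen, gained a 156-base coding exon in MCF10A, from 0.0133 and 0.0154 to 0.214 and 0.308, while the change in HMLE TWIST was 0.0415 and was not called.

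**Figure D4:**
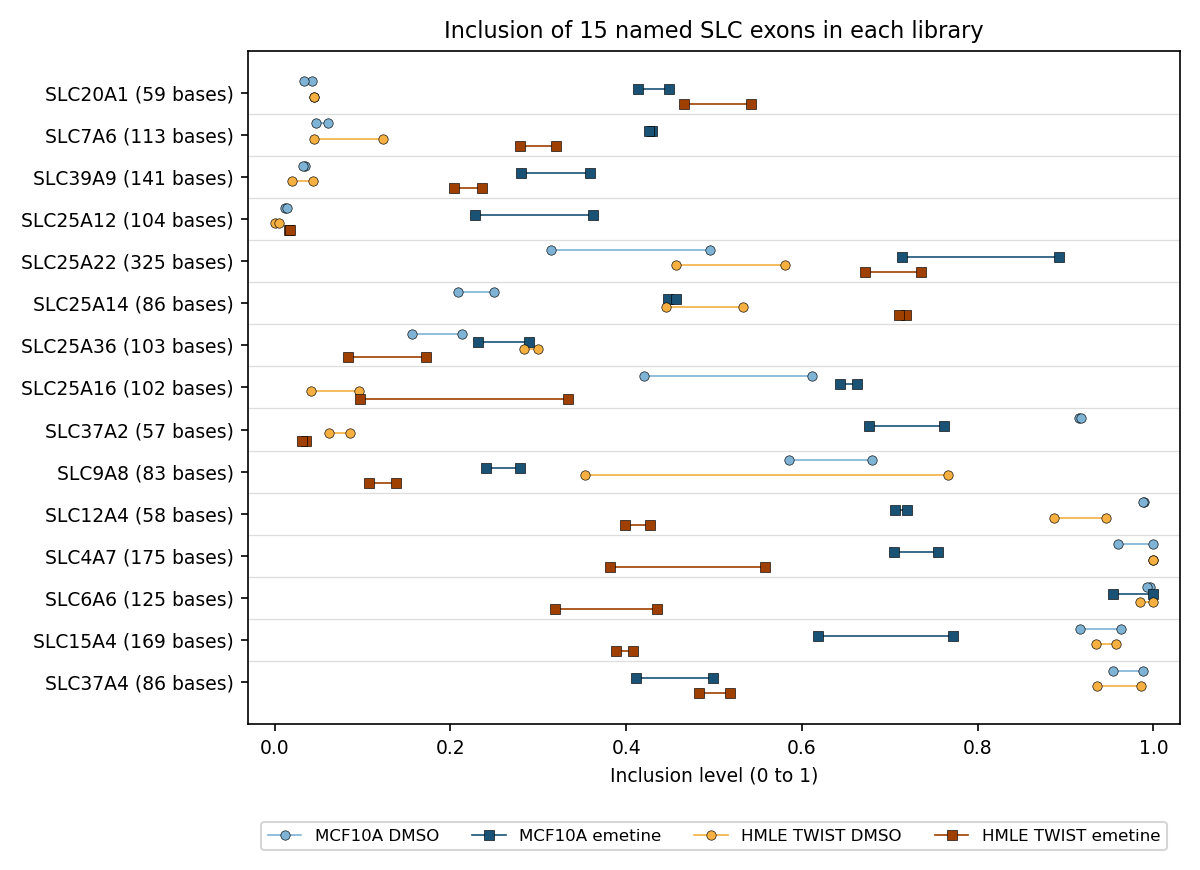
Inclusion level (0 to 1) of 15 named SLC exons, 1 point per library and a line joining the 2 libraries of a group. The 4 emetine libraries lie above the DMSO libraries for SLC20A1, SLC7A6 and SLC39A9, SLC25A12 rises to 0.228 or more only in the MCF10A emetine pair, and SLC37A2 is set apart by line.

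The carriers of vitamins, nucleosides, choline and lipids had 7 of 32 events called in MCF10A (21.9%), all lower. In HMLE TWIST it was 5 of 41 (12.2%), 1 higher and 4 lower. Most calls of the 2 lines were overlapping events of SLC27A3, a member of the fatty acid transport family. Its 40-base coding exon fell from 1 and 0.988 to 0.642 and 0.909 in MCF10A. It went from 0.98 and 1 to 0.735 and 0.48 in HMLE TWIST, and the emetine libraries of both lines had 28 to 45 reads. The levels of 1 with DMSO allow 0.976 and 0.957. SLC33A1, which carries acetyl-CoA into the endoplasmic reticulum, lost a 188-base coding exon in MCF10A, from 0.922 and 0.906 to 0.607 and 0.75, and was not called in HMLE TWIST at 0.965 and 0.85 against 0.856 and 0.861. SLC5A6, a vitamin transporter that its family number puts among the sugar carriers, fell in a 52-base coding exon from 0.986 and 1 to 0.88 and 0.656 in MCF10A and from 1 and 1 to 0.823 and 0.854 in HMLE TWIST. The HMLE TWIST DMSO libraries had 394 and 283 reads and no skipping read, which allows levels down to 0.989 and 0.984, and the level of 1 in MCF10A allows 0.983.

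Sugar carriers had 6 of 43 events called in MCF10A (14%), 1 higher and 5 lower. In HMLE TWIST it was 6 of 36 (16.7%), 2 higher and 4 lower. The SLC37A4 calls were falls, and the rise called in both lines was in SLC2A8, an intracellular glucose transporter. Its 197-base coding exon went from 0.843 and 0.744 to 0.96 and 0.957 in MCF10A. In HMLE TWIST the exon went from 0.754 and 0.535 to 0.956 and 0.867. The adjusted p of 0.0473 and 0.0355 were close to the threshold, and the call was lost in MCF10A without the length correction or any library except the first DMSO library, and in HMLE TWIST in limma and without the second DMSO library or the first emetine library. With the event's own dispersion it was lost in both lines (0.0515 and 0.0747). Carriers classed as nucleotide sugar carriers by family number alone had 4 of 45 events called in MCF10A (8.89%), 3 higher and 1 lower. In HMLE TWIST these carriers had 8 of 44 (18.2%), 4 higher and 4 lower. Among them SLC35F2, named after its values were seen, gained an 84-base decay exon, from 0.00693 and 0.011 to 0.207 and 0.167 in MCF10A and from 0 (131 reads, which allow 0.0123) and 0.011 to 0.177 and 0.0936 in HMLE TWIST. SLC35B1 rose in MCF10A from 0.489 and 0.0968 to 0.581 and 0.511, a call not made by limma (0.28) and lost with the event's own dispersion, without the second DMSO library (0.0565) or without either emetine library (0.218 and 0.288).

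The remaining carriers had 4 of 20 events called in MCF10A (20%) and 3 of 18 in HMLE TWIST (16.7%), all higher. SLC22A5, the carnitine transporter, gained a 129-base exon, both of whose forms are annotated only as decay targets, from 0.731 and 0.75 to 0.925 and 0.921 in MCF10A and from 0.808 and 0.577 to 1 and 1 in HMLE TWIST, where no read of 67 and 91 skipped it, which allows levels down to 0.918 and 0.938. SLC10A7 rose in MCF10A from 0.412 and 0.231 to 0.584 and 0.597, a call not made by limma (0.104) or without the second DMSO library (0.179). SLC22A18 rose in HMLE TWIST from 0.786 and 0.656 to 0.922 and 0.922. It overlaps the antisense gene SLC22A18AS, the counting is not stated to use strand, and its values are uncertain. Monocarboxylate carriers had 0 of 9 and 0 of 3 tested events called by either test, with 0 and 1 at an unadjusted p below 0.05 in the quasi-binomial model.

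The calls were split by the annotation of the 2 forms. Where the inclusion form was a decay target, 10 of 39 SLC events rose and 2 fell in MCF10A, beside 469 rises and 72 falls in 2415 events of all genes. In HMLE TWIST 9 of 48 rose and 8 fell, beside 331 and 138 of 2501. That class looks at the inclusion form alone and holds the 129-base SLC22A5 event. Where the skipping form was the decay target, 1 of 27 rose and 4 fell in MCF10A and 1 of 33 rose and 9 fell in HMLE TWIST, beside 31 and 196 of 1334, and 27 and 312 of 1489, in all genes. Where both forms were protein-coding, 12 of 111 rose and 4 fell in MCF10A, beside 855 and 435 of 8072 in all genes, and 10 of 116 rose and 5 fell in HMLE TWIST, beside 806 and 685 of 8327. Of the events whose inclusion form alone was protein-coding, 1 of 134 rose and 10 fell in MCF10A, and 3 of 168 rose and 16 fell in HMLE TWIST. Falls led in all genes too, with 127 rises and 409 falls in 8267 such events and 180 and 802 in 10900. Emetine blocks translation, and whether a change came from decay or from splicing was not tested.

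**Figure D5:**
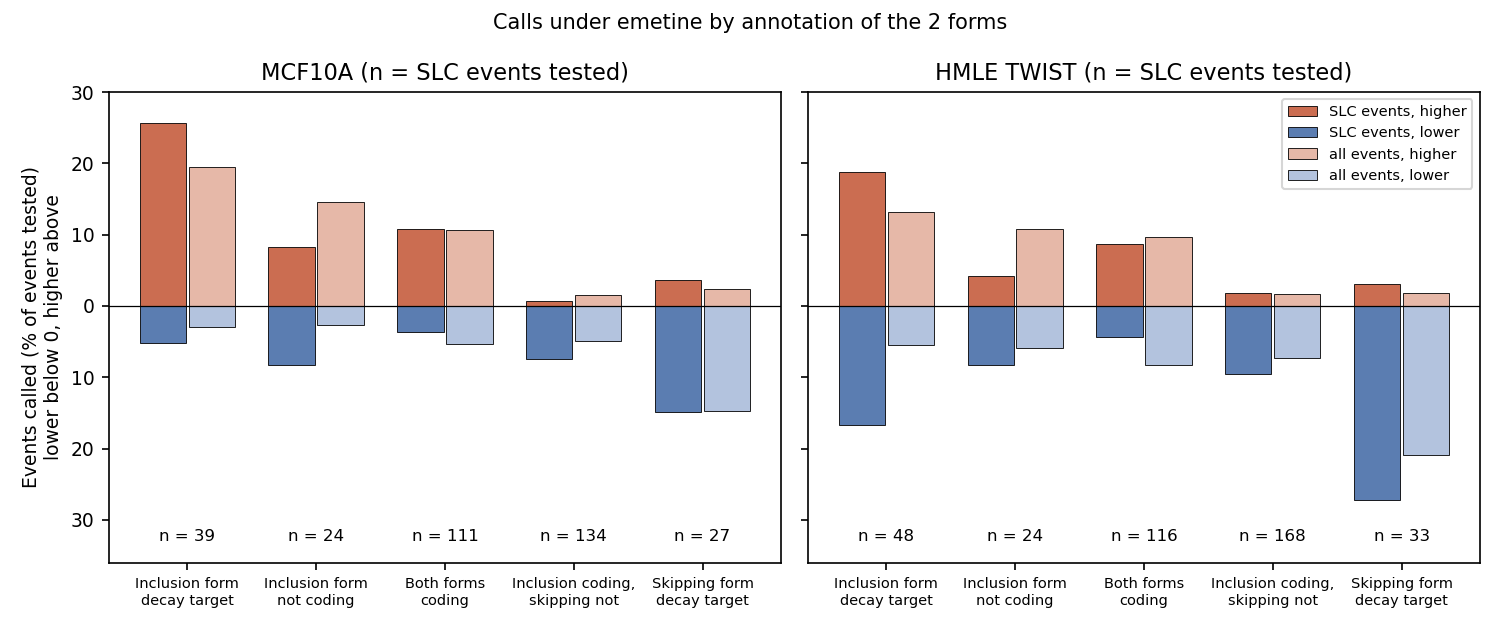
Share of tested events called higher (above 0) or lower (below 0) with emetine, by how GENCODE annotates the inclusion and skipping forms, for SLC events and for all events in each line. In MCF10A the rises lead where the inclusion form is a decay target (10 of 39 SLC events), and in HMLE TWIST 9 rises stand beside 8 falls; falls lead where the skipping form is the target.

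Exon lengths were counted as well. Of 24 SLC exons that fell in MCF10A 4 (16.7%) had a length divisible by 3, beside 11 of 27 that rose and 37% of those not called, while in all genes 31.4% of the falling exons did. In HMLE TWIST it was 12 of 45 falling exons (26.7%) and 10 of 26 rising ones (38.5%), beside 33.3% of SLC exons not called. In all genes there it was 30.9% of falling and 41.7% of rising exons. The motif GGG was searched on the transcribed strand of the exon alone. In MCF10A it was in 16 of 21 falling and 20 of 26 rising SLC exons with a sequence, beside 72.6% of those not called. Over all genes it was in 64% of falling, 65.6% of rising and 66.6% of uncalled exons. In HMLE TWIST it was in 24 of 39 falling and 18 of 24 rising SLC exons and in 79.3% of those not called. Over all genes there it was in 72.3% of falling, 64.6% of rising and 68.3% of uncalled exons.

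The response was set against the line in a fit of all 8 libraries. Of 449 SLC events, 2 were called to respond differently (0.445%), against 0.848% of all 31825, and both were SLC25 decay exons. Limma called none of the 449, with 59 at an unadjusted p below 0.05 and a smallest adjusted p of 0.197. In the quasi-binomial model 53 had an unadjusted p below 0.05. Limma called none of all 31825 events either, and its smallest adjusted p there was also 0.197. Of all events 4058 had an unadjusted p below 0.05 in limma and 2866 in the quasi-binomial model. The SLC25A36 exon of 103 bases was at 0.214 and 0.156 with DMSO and 0.289 and 0.231 with emetine in MCF10A, and at 0.3 and 0.283 against 0.0833 and 0.172 in HMLE TWIST. The change of 0.0753 in MCF10A was not called, and in HMLE TWIST the exon fell by 0.164, a call not made by limma (0.105) and lost without the first DMSO library (-0.156) or the first emetine library (-0.12).

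The SLC25A10 exon of 245 bases, in the dicarboxylate carrier, was at 0.0757 and 0.0796 with DMSO and 0.0195 and 0.069 with emetine in MCF10A, and at 0.0323 and 0.0109 against 0.117 and 0.0707 in HMLE TWIST. In neither line did it pass the size threshold alone.

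Under DMSO 11 of 449 SLC events were called between the lines (2.45%), 2 higher and 9 lower in HMLE TWIST, against 2.68% of all events, of which 0.902% were higher and 1.78% lower. The cells differ in the markers given above, and the part of that in these levels was not tested. SLC37A2, a sugar phosphate exchanger of the endoplasmic reticulum, differed most. Its 57-base exon (chr11:124956100-124956156) was at 0.915 and 0.918 in MCF10A with DMSO and at 0.676 and 0.761 with emetine, and at 0.062 and 0.0859 in HMLE TWIST with DMSO and at 0.0353 and 0.0313 with emetine. With DMSO nearly all MCF10A transcripts kept it and nearly all HMLE TWIST transcripts skipped it. The change of -0.198 with emetine in MCF10A was called by both tests (quasi-binomial adjusted p 7.1e-06, limma 0.0385). The difference of -0.843 under DMSO had a quasi-binomial adjusted p of 8.67e-12 (limma 0.00562), and it was the sole SLC event that limma called there, where it called 0.581% of all events.

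The other differences under DMSO rest on the quasi-binomial model. The SLC25A16 decay exon was at 0.42 and 0.611 in MCF10A and at 0.0413 and 0.0961 in HMLE TWIST (difference -0.447, adjusted p 0.00143, limma 0.0744). SLC35A3, which brings UDP-N-acetylglucosamine into the Golgi, was higher in HMLE TWIST in a 155-base coding exon, 0.949 and 0.877 against 0.552 and 0.59. Its adjusted p was 0.00559 (limma 0.103), and the call was lost with the event's own dispersion (0.0525). The 86-base SLC25A14 exon was higher by 0.261, and a 61-base coding exon of SLC25A17 was lower, at 0.838 and 0.807 against 0.948 and 0.926.

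SLC50A1, a sugar transporter, was lower in HMLE TWIST. Its 124-base coding exon was at 0.73 and 0.737 in MCF10A and at 0.592 and 0.591 in HMLE TWIST, with replicates within 0.01 of each other in both lines. The adjusted p was 2.1e-05 in the quasi-binomial model, and limma did not call the difference (0.29).

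With emetine 32 SLC events were called between the lines (7.13%), 4 higher and 28 lower in HMLE TWIST, against 6.68% of all events, where 1.25% were higher and 5.43% lower. Limma called 7, where it called 0.836% of all events. The 32 included the SLC6A6, SLC15A4, SLC12A4 and SLC12A9 exons, with differences of -0.6, -0.297, -0.3 and -0.329. The comparisons of emetine with DMSO and of the lines share libraries, and their values stand side by side for that reason.

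Transport genes outside the SLC symbols were counted for comparison. Of 44 tested events in 16 genes of mitochondrial transport (carrier-like proteins, porins, import subunits, the calcium uniporter and sideroflexins), 2 rose and none fell in MCF10A (4.55%, beside 13.1% of all events), in TOMM20, a receptor of the import machinery, and VDAC2, an outer membrane porin. The same 2 genes rose in HMLE TWIST, where 6 of 63 events rose and 3 fell (14.3%, beside 14.2%). In 1 event the 104-base VDAC2 exon went from 0.00816 and 0.00999 to 0.126 and 0.118 in MCF10A. In HMLE TWIST that event went from 0.00841 and 0.00828 to 0.15 and 0.125. Another event of the same exon, also called in HMLE TWIST, stood far higher, at 0.857 and 0.878 with DMSO and 0.982 and 0.985 with emetine. Of the plasma membrane and organelle partners, 1 of 52 events rose and 5 fell in MCF10A (11.5%), and 2 of 55 rose and 2 fell in HMLE TWIST (7.27%). G6PC3, a glucose 6-phosphatase that works beside SLC37A4 in the endoplasmic reticulum, rose in MCF10A in a 184-base exon from 0.0303 and 0.0297 to 0.191 and 0.13. ATP1B3, a subunit of the sodium pump, fell in both lines in a 51-base exon, from 1 and 0.995 to 0.896 and 0.845 in MCF10A and from 0.983 and 0.985 to 0.871 and 0.87 in HMLE TWIST. The level of 1 in 527 reads allows 0.992.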

How the data were processed

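Skipped-exon tables of 8 libraries were used, with a table for each line, in the rMATS format per the file headers. The authors' deposited junction counts give inclusion and skipping reads, with both replicates in a cell. The 4 columns of the authors' inclusion levels were not used, and levels were recomputed. Reads were aligned with STAR 2.5.3a to GRCh37, per the submitters' processing notes. The rMATS version is not given in the sources used here. The deposited p-value, the authors' FDR and their difference score were not used in any test. By the authors' deposited FDR below 0.05 with a difference of 0.1 or more, 89 SLC events in MCF10A (6.7%, beside 6.93% of all) and 141 in HMLE TWIST (9.27%, beside 7.59%) changed in the authors' deposited table.

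Counts were fitted with a quasi-binomial logistic model (R 4.3.3) whose dispersions were moderated with limma 3.58.1 (squeezeVar) and floored at 1. The prior, 2.12 in MCF10A, 2.17 in HMLE TWIST and 2.14 over both, was estimated from events with 10 or more reads of the rarer form in each group, and events with fewer took at least that value. All tests are two-sided, and levels at the limit are given with what 3 reads would allow (counting error only). The fits were tested on simulated data. With 2 libraries a group, p-values cover only the spread among these samples. In the quasi-binomial model that spread is mostly pooled over events, with prior degrees of freedom of 64.3 in MCF10A, 65.3 in HMLE TWIST and 21.8 over both. An event's own spread between replicates therefore counts for little in that p-value. Substrate classes follow the family number. Exons were matched to GENCODE 29 by structure, since only 0.654% had GRCh38 coordinates.

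Named were, in each line, the 10 largest rises and the 10 largest falls (1 event per gene), SLC25 events called in both lines, tested SLC37A4 events, and calls between the lines (at most 10 of the interaction and 5 a direction under DMSO). The members and lists were chosen with earlier results of these data known. An event that this rule names is not reported here.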

Additional observations from a re-analysis of the deposited data

Results flagged for a closer look

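The change with emetine differed between the lines in 2 SLC events by the test of the interaction. In the 245-base SLC25A10 exon the change in HMLE TWIST was higher than that in MCF10A by 0.106 (adjusted p 0.0364 in the quasi-binomial model). In the 103-base SLC25A36 exon the change in HMLE TWIST minus that in MCF10A was -0.239 (adjusted p 0.034). Neither was called by limma, nor with each event's own dispersion where that was larger.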

How the results depend on the processing

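The 5 counts of called SLC events were 52 (MCF10A), 74 (HMLE TWIST), 2 (response between lines), 11 (lines under DMSO) and 32 (lines under emetine). With a change of 0.2 or more they were 28, 35, 1, 5 and 19. Limma gave 36, 53, 0, 1 and 7. The count of 2 was 0 with each event's own dispersion and 0 with no read filter, and the count of 11 was 7 with 50 reads per library. With a replicate block, taking the first listed value as replicate 1, the counts were 54, 82, 5, 11 and 31. The numbers pair nothing that the data show, since same-numbered deviations correlated at 0.0177 and 0.00667. Leaving out 1 library in turn gave 51 to 58, 56 to 69, 0 to 4, 7 to 15 and 26 to 32. The count of 2 became 1 without the first DMSO library of either line, 0 without the second DMSO library of either line or the first MCF10A emetine library, and 4 without the second HMLE TWIST emetine library. Without the first HMLE TWIST emetine library it was again 2, with 0 shared with the SLC25A10 and SLC25A36 calls. The count of 11 became 7 without the first HMLE TWIST DMSO library. The cause was not tested. The 88 values of named events include some that were not called. In limma 71 kept their state, called or not called, and 17 lost their call. The state was kept by 82 without the length correction and by 88 with the block, and none reversed. Events with few reads, such as SLC6A6 and SLC27A3 with emetine, limit the precision.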
